A study of Mus musculus with 2 samples.

Results

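Plac8/Cd52 cells are a small set of cells found by scRNAseq among cells sorted as tdTomato+ from embryonic mouse trunk skin, and their working name was monocyte and dendritic-like cells. Cells were chosen by their measured counts: a cell was a member when *Plac8*, *Cd52*, *Ly6c2* and *Cd74* together gave at least 6 unique molecular identifiers (UMIs, each a counted mRNA molecule). Its UMIs of the macrophage genes *C1qa*, *C1qb*, *C1qc*, *Csf1r*, *Pf4* and *Mrc1* could sum to at most 7, those of the mast cell genes *Cma1*, *Cpa3* and *Tpsb2* to at most 9, and those of the melanoblast genes *Dct*, *Pmel* and *Mlana* to at most 4. This rule found 62 of 2368 cells. They were 43 of the 1540 HIRA WT cells (2.79%, 95% Clopper-Pearson interval 2.03 to 3.74) and 19 of the 828 HIRA KO cells (2.29%, 1.39 to 3.56). They were compared with C1q-high macrophages, whose sum over the same 6 macrophage genes was at least 8 and which numbered 102 WT cells (6.62%) and 20 KO cells (2.42%).

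The libraries came from E15.5 embryos of mixed strain close to C57BL/6J, 1 library per genotype, labelled wild type and HIRA knockout, which the paper describes as *TyrCre::Hira wt/wt:tdTomato* (HIRA WT) and *TyrCre::Hira fl/fl:tdTomato* (HIRA KO). Cre was driven by the *Tyr* promoter in both, so a cell becomes tdTomato+, and in the KO loses *Hira*, only if it or an ancestor had active *Tyr*-driven Cre. Live tdTomato+ cells were sorted with DAPI as the dead cell dye and loaded on the 10× Chromium 3′ platform. The labels do not name the embryos, and the match to the littermates WT1 and KO1 was inferred.

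The WT library held 1546 barcodes with 7073939 UMIs (median 3961 per barcode), and the KO library 846 barcodes with 5049514 UMIs (median 5152.5). The libraries shared 0 barcodes. Since each genotype had 1 library and cells are not replicates, no test was made, and every interval given is a 95% interval of the counting error alone. *Xist*, the RNA that coats the inactive X chromosome, had UMIs in 37 of 43 WT members and in 0 of 19 KO members. The Y-linked genes *Ddx3y*, *Eif2s3y*, *Kdm5d* and *Uty* had UMIs in 0 WT and 13 KO members. Genotype, sex and library therefore cannot be told apart.

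Monocytes are circulating precursors of tissue macrophages and of some dendritic cells, and in the mouse the classical kind carries Ly6C and the chemokine receptor CCR2. Dendritic cells take up antigen and present its peptides on MHC class II, whose invariant chain is *Cd74*. Neutrophils arise beside monocytes from shared progenitors and pack proteases and antimicrobial proteins into granules. Embryonic skin holds resident macrophages marked by complement C1q before most lymphoid cells have arrived.

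The genes of the selection are given as a description, since they chose the cells. *Plac8* (chr5:100553725-100572245, minus strand, ENSMUSG00000029322), which encodes a small cysteine-rich protein of myeloid cells, had 540 UMIs in the WT members and 228 in the KO members. *Cd52* (chr4:134082448-134095082, minus strand, ENSMUSG00000000682), which encodes a short glycoprotein of the leukocyte surface, had 488 and 216. *Cd52* was found in 43 of 43 WT and 17 of 19 KO members, and *Plac8* in 33 of 43 WT and 18 of 19 KO members. *Ly6c2* (chr15:75108158-75111970, minus strand, ENSMUSG00000022584), a gene of the Ly6C antigen, had 98 and 60 UMIs in 22 WT and 10 KO members, and its reads may be shared with the near-identical *Ly6c1*. *Cd74* (chr18:60803848-60812652, plus strand, ENSMUSG00000024610) had 307 UMIs in 13 WT members, of which 168 were in 1 cell, and 66 UMIs in 5 KO members. *Cd52* thus reached nearly every member, while *Cd74* was carried by a minority. All coordinates are of GRCm38 with GENCODE M21.

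The members held 81.3% of all *Plac8* UMIs of the WT library and 68.9% of those of the KO library. Their sum over the 4 genes had a median of 24 in the WT and 26 in the KO cells. Just inside the threshold, with sums of 6 or 7, lay 6 WT cells and 1 KO cell, with a median of 14.5 and 0 UMIs over 10 pan-leukocyte genes. Just outside it, with sums of 4 or 5, lay 5 WT and 6 KO cells, with medians of 2 and 19.5. A sum of at least 6 was reached by 58 WT and 26 KO cells, and the macrophage limit removed 14 WT and 7 KO of them, the melanoblast limit 1 WT cell and the mast cell limit 0. The 6 macrophage genes had 0 UMIs in 27 WT and 9 KO members, and in the macrophages their sum had a median of 109 and 91.5.

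Members were shallower than macrophages. Their median was 2851 UMIs and 1072 genes in the WT and 6720 UMIs and 1970 genes in the KO library, against 5571.5 and 8125 UMIs in the macrophages. Melanoblasts, which should lack leukocyte transcripts and served to gauge free RNA, were 383 WT and 123 KO cells with medians of 4840 and 5983 UMIs. Doublets were not removed from the cells described.

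UMIs were summed over the cells of each class and scaled to CPM, the UMIs of a gene per 10⁶ UMIs of the class. Among 1988 genes with at least 50 UMIs in both classes of the WT library together, 108 (5.43%) were at least 2 times higher in the members than in the macrophages and 329 (16.5%) at least 2 times lower, 437 (22.0%) in all. In the KO library, 863 genes were read, of which 71 (8.23%) were higher and 88 (10.2%) lower, 159 (18.4%) in all. Of 853 genes read in both libraries, 70 were higher in the WT and 65 in the KO library, and 47 were higher in both, that is 47 of the 70 and 47 of the 65. The rule chose the members on genes of this contrast, so nothing is read from these counts. The median log2 ratio over all genes read was -0.16 in the WT and -0.12 in the KO library.

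The label was checked against markers. *Lyz2* (chr10:117277331-117282321, minus strand, ENSMUSG00000069516), which encodes the lysozyme of myeloid cells, stood at 8910.0 CPM in the WT members and 2119 CPM in the WT macrophages, a log2 ratio of 2.07 (1.97 to 2.18). In the KO library the levels were 5918 and 931 CPM, a log2 ratio of 2.67 (2.43 to 2.92). A *Lyz2* UMI was found in 36 of 43 WT and 17 of 19 KO members, and in 26 of 383 WT and 16 of 123 KO melanoblasts. *Lyz2* was therefore widespread among the members and higher in them than in macrophages of either library. *Tyrobp*, the signalling adaptor of myeloid and NK receptors, was found in 43 of 43 WT and 17 of 19 KO members, against 9.92% and 11.4% of melanoblasts. The 10 pan-leukocyte genes summed to 8745 CPM in the WT and 6631 CPM in the KO members, with *Tyrobp* the most abundant, and 2 KO members had 0 UMIs of all 10.

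Of the 12 monocyte genes, summed to 11213 CPM in the WT and 7549.6 CPM in the KO members, *Lyz2* was the most abundant. At least 3 UMIs of the list were present in 35 of 43 WT and 16 of 19 KO members. Of the genes read, 4 of 8 were at least 2 times higher than in WT macrophages and 3 lower, and 2 of 5 higher and 3 lower than in KO macrophages. This stands beside 5.43% higher and 16.5% lower, and 8.23% higher and 10.2% lower, of all genes, with a median log2 of 0.85 and -1.46 beside -0.16 and -0.12 over all genes. *Ccr2* (chr9:124101950-124113557, plus strand, ENSMUSG00000049103), the chemokine receptor by which classical monocytes leave the bone marrow, stood at 256 CPM in the WT members and 34.3 CPM in the macrophages, a log2 ratio of 2.90 (2.14 to 3.70). In the KO library it stood at 179.8 and 79.5 CPM, a log2 ratio of 1.18 (0.20 to 2.22). *Ccr2* had UMIs in 21 WT and 12 KO members, and in 1 of 383 WT and 0 of 123 KO melanoblasts. *Ccr2* was higher in the members of both libraries, with a wide interval in the KO.

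*Ifitm6*, an interferon-induced transmembrane gene of myeloid cells, stood at 608 CPM in the WT members and 15.6 CPM in the macrophages, and at 353 CPM in the KO members with 0 UMIs in the KO macrophages. Its log2 ratio was 5.28 (4.35 to 6.38) in the WT library and at least 4.37 in the KO library, where the macrophages were set at 3 counts. *Ifitm6* was thus high in the members and nearly missing from macrophages. Without groups D and E, described below, it stood at 328 CPM in the WT and 343 CPM in the KO members left. These members held 46 of its 114 WT and 24 of its 53 KO UMIs. *F13a1*, the coagulation factor XIII A gene, was lower in the members, with log2 ratios of -2.63 and -2.50. *Cx3cr1*, the fractalkine receptor gene, was lower as well, at 69.3 against 516 CPM in the WT and 33.3 against 488 CPM in the KO library. *Chil3*, a chitinase-like gene typical of classical monocytes, had 1 UMI in the WT and 6 in the KO members. *Ace*, a gene of patrolling monocytes, had 0 and 1. The list was thus split. *Lyz2*, *Ccr2* and *Ifitm6* were higher in the members of both libraries, and *Nr4a1*, a transcription factor gene, at least 2 times higher in the WT. *F13a1* and *Cx3cr1* were at least 2 times lower in both libraries. The Fc receptor gene *Fcgr1* was at least 2 times lower in the WT and *Ms4a6c* in the KO library. *Chil3* and *Ace* were at or near 0.

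The dendritic part of the name rested on little signal. *Flt3*, the cytokine receptor on which dendritic cell development depends, had 1 UMI in the WT and 2 in the KO members. *Zbtb46*, a transcription factor gene of conventional dendritic cells, had 0 and 0, and up to 3 counts in each class cannot be told from 0, which is 16.0 CPM in the WT members. *Itgax*, which encodes CD11c, had 1 and 1, and *Ccr7*, the receptor of migrating dendritic cells, 1 and 0. Of the type 1 markers, *Clec9a* had 0 and 0 and *Xcr1* 2 UMIs in 1 WT cell and 0. Of the type 2 markers, *Cd209a* had 2 and 0, and of the Langerhans cell markers *Cd207* had 0 and 0. The 6 dendritic cell genes summed to 14 UMIs in the WT and 8 in the KO members, mostly *Fscn1*, which 63.7% and 72.4% of melanoblasts also had. These defining genes were at or near 0 in both libraries. The longer lists gave more counts. The type 1 list stood at 299 CPM in the WT members and 145 CPM in the macrophages, a log2 ratio of 1.04 (0.54 to 1.53), and at 107 and 176 CPM in the KO library. Its most abundant gene was *Irf8*, and 17 of its 56 WT UMIs were in 1 MHC class II-high cell. The Langerhans cell list stood at 160.0 and 10.9 CPM in the WT and 113 and 5.68 CPM in the KO library, log2 ratios of 3.87 and 4.32. It was led by *Cd24a*, a glycoprotein gene also found in granulocytes and progenitors, with *Cd207*, *Epcam* and *Il34* at 0. The type 2 and plasmacytoid lists were lower than in macrophages, with log2 ratios of -0.66 and -0.36 in the WT and -0.71 and -1.12 in the KO library. Some lists were thus higher in the members, but at least 3 UMIs of the 6 dendritic cell genes were present in only 2 WT cells and 1 KO cell. The data went against using the name dendritic-like for the set as a whole, and it is called by genes of its selection, Plac8/Cd52 cells. Among the genes that dendritic cells share with other cells, *Irf8*, an interferon regulatory factor gene of monocytes and dendritic cells, had 30 UMIs in 11 WT and 6 UMIs in 6 KO members.

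**Figure D1:**
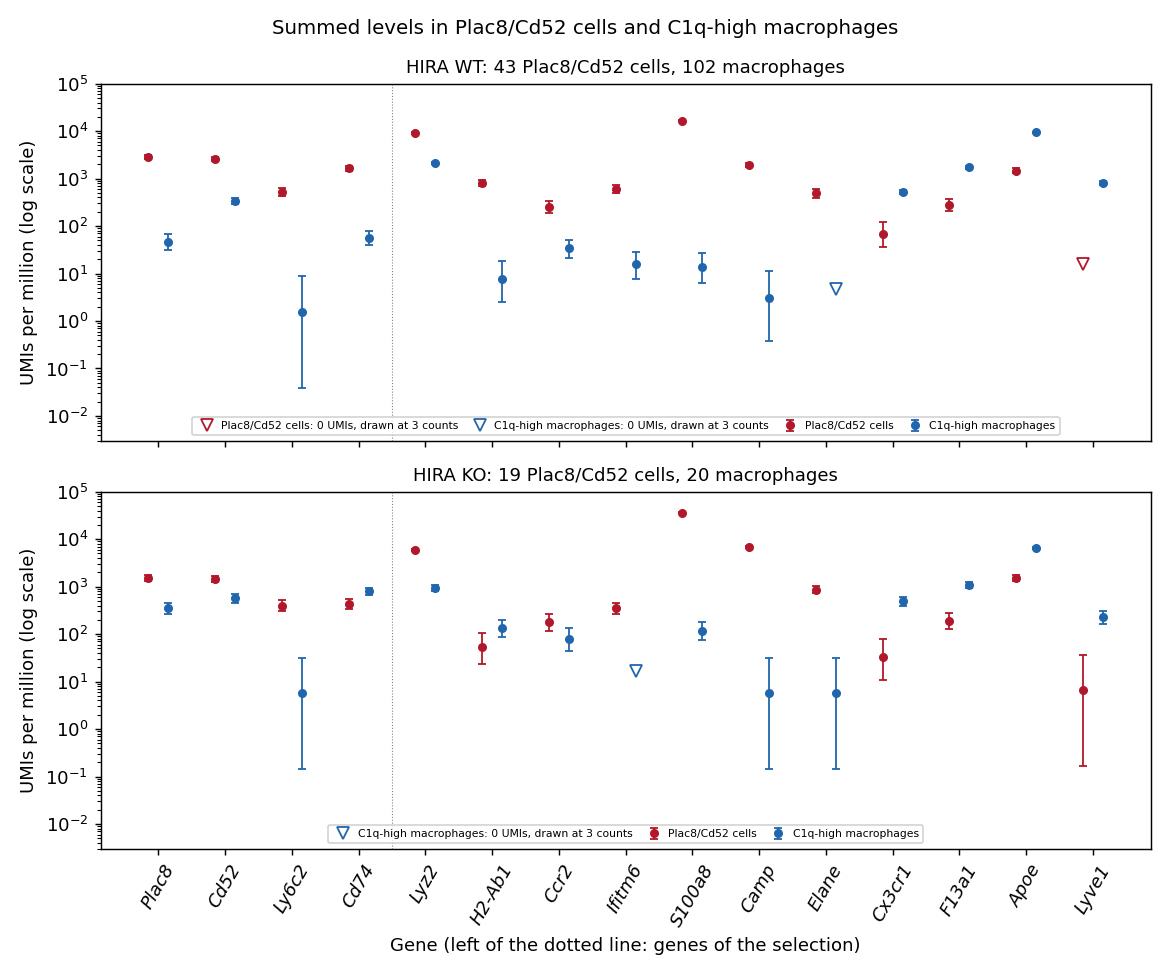
Levels of 15 genes in CPM on a log scale, in 43 WT and 19 KO Plac8/Cd52 cells (red) and 102 WT and 20 KO C1q-high macrophages (blue), with bars for the 95% Poisson interval, open triangles at 3 counts for classes with 0 UMIs and the genes of the selection left of the dotted line. *Lyz2* and *Ccr2* were higher and *Cx3cr1*, *F13a1* and *Apoe* lower in the Plac8/Cd52 cells of both libraries, while *H2-Ab1* was higher in the WT (805 against 7.80) and lower in the KO library (53.3 against 136).

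The members were not of 1 kind. Clustering of the 62 cells without the selection, mitochondrial, sex-linked and reporter genes gave 5 groups, called A to E here. Apart from *Cd74*, a gene of the selection, the genes that lead a group were not withheld from the clustering. They are given only to describe the group. Group A held 10 WT and 7 KO cells, B 13 and 2, C 10 and 2, D 7 and 3, and E 3 and 5. All 5 groups therefore held cells of both libraries. No group was given a cell type name.

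Groups A and B carried most of the monocyte signal. *Lyz2* was found in 17 of 17 cells of A and 15 of 15 of B, at 11979 and 17694 CPM. *Ccr2* was found in 13 cells of each, at 316 and 718 CPM, against 0 UMIs in the 10 cells of D. *Ms4a6c*, a tetraspan gene of myeloid cells, stood at 871 CPM in A and 1378 CPM in B. Macrophages also had it, at 782 CPM in the WT and 1027 CPM in the KO library. Over all members it stood at 608 CPM in the WT and at 373 CPM in the KO library, there at least 2 times lower than in macrophages. Group B also carried more of the 16 macrophage genes outside the selection, at 7609.9 CPM against 1300.1 CPM in A, with *Apoe*, the apolipoprotein E gene, at 5854 against 808 CPM. Group B was led by the lectin gene *Clec4a3*, *AF251705* and *Ms4a6d*. The leading genes of A were *H2-Ab1*, *H2-Eb1*, *Cd74* and *H2-Aa*, yet only 2 of its 17 cells had at least 3 MHC class II UMIs, so these genes describe few of its cells.

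Group D was set apart by neutrophil granule genes. *Camp*, which encodes the antimicrobial cathelicidin, had 1395 UMIs in its 10 cells and 2 in the other 52. *Ngp*, the neutrophilic granule protein gene, stood at 24271 CPM and *Lcn2*, the iron-sequestering lipocalin of secondary granules, at 6479 CPM, and *Ltf*, the lactoferrin gene of the same granules, at 2358 CPM. The 12 neutrophil and granule genes gave 490 to 1151 UMIs in each of the 7 WT cells and 1925 to 5103 in each of the 3 KO cells. *S100a8* alone made up 151609 CPM of group D. Its cells had entered the set mainly through *Cd52*, with 89 UMIs, against 27 of *Plac8*, 27 of *Ly6c2* and 0 of *Cd74*.

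Group C was a mixture, and *Lyz2* was found in 4 of its 12 cells, with 76 UMIs in 1 WT cell that also had 2 of *Ccr2*. In 2 WT cells and 1 KO cell of C, *Mpo*, *Elane* and *Prtn3*, the peroxidase and serine proteases of primary granules, summed to 111, 208 and 155 UMIs. At least 3 UMIs of the NK and innate lymphoid list were found in 5 WT cells and 1 KO cell, all of group C. The KO cell and 1 of the WT cells were primary granule cells named above, whose UMIs of the list were all *Nkg7*. In the 4 other WT cells *Lyz2* was at 0, and 1 of them had 37 UMIs of the list. *Nkg7*, a cytotoxic granule gene, had 25 UMIs in 4 WT members, *Gzma*, a granzyme gene, 21 UMIs in 2 of them, and *Il7r*, the interleukin 7 receptor gene, 10 UMIs in 2. The T cell receptor complex gene *Cd3e* had 0 UMIs in both libraries, and *Cd3g* had 5 UMIs in 2 WT members. In 1 other WT cell of C all 7 *Siglech* UMIs of the WT members were found, together with 50 UMIs over the plasmacytoid dendritic cell list, 8 of MHC class II and 14 of *Cd74*. In 1 KO cell of C, *Mcpt8*, a basophil protease gene, had 24 UMIs, and it was at 0 in every other member. These cells were named after their values were seen, and each kind rests on few cells. The *Siglech* cell and the 4 cells with the NK and innate lymphoid list and no *Lyz2* were in the WT library only, and the *Mcpt8* cell in the KO library only.

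Group E combined mesenchymal transcripts with leukocyte transcripts. *Dcn*, a proteoglycan gene of connective tissue, *Col1a1*, a fibrillar collagen gene, and the imprinted RNA *Meg3* were found in 8 of its 8 cells, at 3409.9, 4136 and 2450.5 CPM. The 7 mesenchymal genes gave 134 to 185 UMIs in its 3 WT cells and 51 to 338 in its 5 KO cells. In the other members the most was 11. The 3 WT cells also had 45 to 57 pan-leukocyte UMIs, while 2 of the KO cells had 0 and were members through 6 and 9 UMIs of *Plac8* alone. Group E was the deepest, with a median of 9711 UMIs against 2626.5 to 4672 in the others. Scrublet, a doublet caller, called 9 WT and 6 KO cells as doublets, of which 0 were members. Whether these cells were doublets was not tested further.

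**Figure D2:**
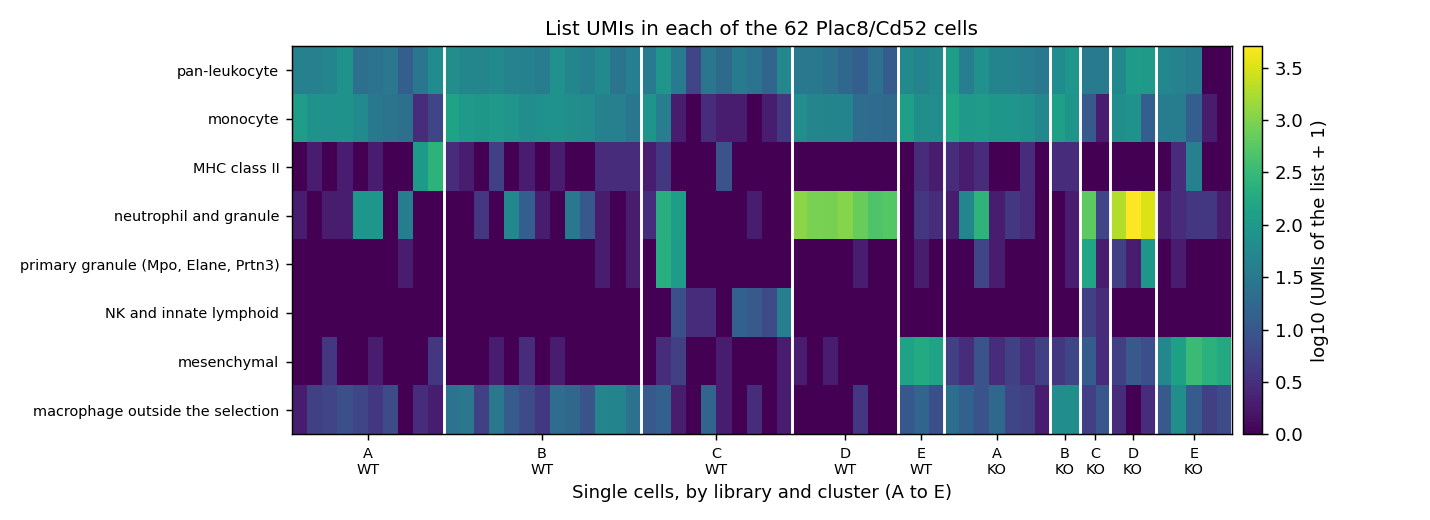
UMIs of 8 gene lists (vertical axis) in each of the 62 Plac8/Cd52 cells (1 column per cell, ordered by library, group A to E and *Lyz2*), colored as log10 of the UMIs plus 1. Neutrophil genes peak in the 10 cells of group D (up to 5103 UMIs), mesenchymal genes in the 8 cells of E (up to 338) and MHC class II genes in a few cells (up to 252).

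With groups D and E left out, 33 WT and 11 KO cells remained, an alternative chosen after the values were seen. In these, 97 of 1890 genes (5.13%) were at least 2 times higher than in WT macrophages and 327 (17.3%) lower, and 58 of 688 (8.43%) higher and 82 (11.9%) lower than in KO macrophages. The monocyte list stood at 11323 against 5422 CPM in the WT and at 12773 against 4024 CPM in the KO library. *Ccr2* was at 314 CPM in the WT and 343 CPM in the KO cells, found in 20 of 33 and 10 of 11. *Lyz2* was at 9026 and 10258 CPM, found in 26 and 10 cells. The levels of *Lyz2* and *Ccr2* were thus near each other in the libraries once groups D and E were left out. *Chil3* was at 0 in both.

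Several genes outside the lists stood out in the remaining cells and are named after their values were seen. *Lgals3*, which encodes the carbohydrate-binding galectin 3, stood at 1063 against 99.9 CPM in the WT and 1543 against 102 CPM in the KO library. *Hp*, the haemoglobin-binding haptoglobin gene, stood at 399.6 against 7.80 CPM in the WT and at 557 CPM against 0 UMIs in the KO library. *Thbs1*, the thrombospondin 1 gene, stood at 471 against 20.3 CPM and at 629 against 39.7 CPM. A higher level in both libraries was part of how these genes were picked. *Napsa*, an aspartic protease gene, stood at 349.6 against 23.4 CPM and at 414 against 39.7 CPM. *Hp* was found in 22 of the 33 WT and 9 of the 11 KO cells.

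The S100 genes encode small calcium-binding proteins, several of them abundant in myeloid cells. In all members 5 of 7 were at least 2 times higher than in macrophages of either library, beside 5.43% and 8.23% of all genes, with a median log2 of 4.03 in the WT and 2.0 in the KO, beside -0.16 and -0.12 over all genes. *S100a4* stood at 331 against 14.0 CPM in the WT and 273 against 96.5 CPM in the KO library. *S100a6* stood at 1381 against 84.3 CPM and 1565 against 392 CPM, and *S100a11* at 1439.7 against 153 CPM and 2124 against 352 CPM. The 5 include *S100a8* and *S100a9*, and *S100a10* and *S100a13* were within 2 times. *S100a6* was found in 36 WT and 18 KO members, and in 8.88% and 26.0% of melanoblasts.

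The 10 interferon-responsive genes summed to 5295 CPM in the WT and 4634 CPM in the KO members, with 3 of 6 and 2 of 6 at least 2 times higher than in macrophages, beside 5.43% and 8.23% of all genes. *Ifi30*, a lysosomal thiol reductase gene, was at least 2 times lower in the WT, at 149 against 378 CPM. *Ifitm1* and *Ifitm6* were higher in both libraries and *Ifitm3*, the most abundant, in the WT at 2112 against 562 CPM. Without groups D and E, 3 of 6 WT and 4 of 5 KO genes were at least 2 times higher. This stands beside 5.13% and 8.43% of all genes in the same cells. *Ifitm3* then stood at 2615 against 840.0 CPM in the KO library. *Isg15*, a ubiquitin-like interferon target, had only 7 and 0 UMIs in the members. The list was thus carried by *Ifitm* genes and not by *Isg15*. The 6 phagocyte NADPH oxidase genes summed to log2 ratios of 0.25 in the WT and 0.67 in the KO library. The most abundant, *Cyba*, stood at 1210.4 against 1493 CPM in the WT and 1292 against 976 CPM in the KO library, within 2 times in both. Of the others, *Cybb*, its membrane subunit gene, stood at 261 against 82.7 CPM in the WT library, and *Ncf4*, a cytosolic subunit gene, at 155 against 49.9 CPM. In the KO library *Cybb* stood at 239.7 against 73.8 CPM, and *Ncf4* at 219.7 against 96.5 CPM.

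Of the leukocyte actin regulators, 2 of 8 were at least 2 times higher in the WT and 2 of 7 in the KO library, beside 5.43% and 8.23% of all genes, with medians of 0.27 and 0.51. *Lsp1*, an actin-binding protein gene, stood at 592 against 65.5 CPM in the WT and 446 against 125 CPM in the KO library. *Coro1a*, the coronin gene of leukocytes, stood at 896 against 429 CPM and 679 against 477 CPM. Of this list, *Lsp1* was past 2 times in both libraries, *Coro1a* in the WT only and *Arhgdib* in the KO only. *Cd44*, the hyaluronan receptor gene, is not in this list and stood at 155 against 65.5 CPM and 153 against 73.8 CPM. Of the transcription factors, *Cebpb*, a myeloid leucine zipper factor gene, stood at 1376 against 634 CPM and 1305 against 1010.2 CPM, and *Spi1*, which encodes PU.1, at 357 against 382 CPM and 253 against 335 CPM. *Maf*, a factor gene of resident macrophages, was lower, with log2 ratios of -3.40 and -3.34.

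Macrophage genes that the rule did not use were low in the members. Of the 16 listed, 11 of 11 read were at least 2 times lower in the WT and 3 of 4 in the KO library, beside 16.5% and 10.2% of all genes. Many reached the UMI minimum through the macrophages alone, which were chosen on genes of the same kind, so nothing is read from these counts. *Lyve1*, a hyaluronan receptor gene of resident macrophages, had 0 UMIs in the WT members and 512 in the macrophages, and 1 and 40 in the KO library. *Folr2*, a folate receptor gene of the same cells, had 1 and 191 UMIs in the WT and 0 and 16 in the KO library. *Apoe* stood at 1450.3 against 9473 CPM and 1538 against 6538 CPM, and 89.3% and 91.9% of melanoblasts had it. Among genes outside the rule that were also lower in the KO library, those with the smallest WT ratios were *Ms4a7*, *Serpinb6a*, *Igf1*, *Folr2*, *Lyve1*, *Stab1*, *Npl*, *C3ar1*, *Dab2* and *Hmox1*. Their WT log2 ratios ran from -6.19 for *Ms4a7*, with 1 UMI in the members, interval -11.50 to -3.70, to -5.01 for *Hmox1*. Being lower in the KO library was part of how the 10 genes were picked, and their KO ratios, such as -5.02 for *Ms4a7* and -3.09 for *Hmox1*, give their size only.

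The lysosomal and phagocytic genes were lower in 8 of 13 cases in the WT and 6 of 13 in the KO library, beside 16.5% and 10.2% of all genes, with medians of -1.31 and -0.97 beside -0.16 and -0.12. Without groups D and E they were lower in 7 of 13 and 3 of 12 cases, beside 17.3% and 11.9% of all genes. Several reached the UMI minimum mainly through the macrophages, so nothing is read from these counts and medians. *Lgmn*, an asparagine-cleaving lysosomal protease gene, stood at 37.3 against 1113 CPM in the WT and 107 against 778 CPM in the KO library. *Ctsb*, the cathepsin B gene, stood at 283 against 2478 CPM and 259.6 against 1635 CPM. *Ctss*, the cathepsin that trims the invariant chain, stood at 651 against 481 CPM and 479 against 590.2 CPM, within 2 times in both. Of the chemokines, *Ccl7* and *Ccl12*, ligands of CCR2, had 0 UMIs in the members of both libraries and 242 and 96 UMIs in the WT macrophages. *Ccl2*, another ligand of CCR2, stood at 42.7 against 576 CPM and 53.3 against 965 CPM. The ligands of CCR2 were thus on the macrophage side, and the receptor *Ccr2* on the member side.

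The 15 genes with the largest WT ratios that were also higher in the KO library were *Ngp*, *Stfa1*, *BC100530*, *Gm5483*, *S100a9*, *S100a8*, *Camp*, *Mpo*, *Stfa3*, *Lcn2*, *2010005H15Rik*, *Wfdc21*, *Elane*, *Stfa2l1* and *Pglyrp1*. Being higher in the KO library was part of how they were picked. Of these, 7 are in the neutrophil and granule list. *S100a8* (chr3:90668978-90670035, plus strand, ENSMUSG00000056054) and *S100a9* (chr3:90692632-90695721, minus strand, ENSMUSG00000056071), which encode the subunits of calprotectin, were the most abundant. *S100a8* stood at 16524 against 14.0 CPM in the WT and 36396 against 119 CPM in the KO library, log2 ratios of 10.20 (9.27 to 11.33) and 8.25 (7.64 to 8.95). *S100a9* stood at 9529 against 6.24 CPM and 23714 against 51.1 CPM. Most of these UMIs were in the 10 cells of group D. Without groups D and E, *S100a8* fell to 2183 CPM in the 33 WT cells left, 14 of which had it, and to 8586 CPM in the 11 KO cells, 6 of which had it. *S100a9* then stood at 235 and 2314 CPM, found in 7 and 4. Of the KO UMIs left, 547 of 601 of *S100a8* and 158 of 162 of *S100a9* were in 2 cells, so these levels describe few cells. Among melanoblasts 9.66% of WT and 52.0% of KO cells had an *S100a8* UMI, so in the 13 of 19 KO members with it free RNA and the cell's own cannot be told apart at low counts. After thinning each cell to 2000 UMIs, *S100a8* was found in 43.2% of WT and 31.6% of KO members, and in 3.96% and 15.4% of melanoblasts.

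*Ngp* (chr9:110419747-110423012, plus strand, ENSMUSG00000032484) had 616 UMIs in 6 WT and 612 in 5 KO members, with 1 UMI in the macrophages of each library. *Camp* (chr9:109847379-109849617, minus strand, ENSMUSG00000038357) had 359 UMIs in 7 WT and 1038 in 5 KO members, log2 ratios of 9.26 (7.40 to 12.31) and 10.25 (7.77 to 15.55). *Elane* (chr10:79886247-79888215, plus strand, ENSMUSG00000020125), the neutrophil elastase gene, had 91 UMIs in 2 WT and 129 in 3 KO members. Each of these genes was held by few members, so its ratio describes those cells and not the whole set. In the KO library 48.6% of *Ngp*, 22.6% of *Camp* and 29.0% of *S100a8* UMIs lay outside both members and macrophages. In the WT library these shares were 3.14%, 5.74% and 4.43%. For *Elane* they were 4.41% in the KO and 4.21% in the WT library. The stefin A genes *Stfa1*, *Stfa2l1*, *Stfa3*, *BC100530*, *Gm5483* and *2010005H15Rik* lie on chromosome 16 and encode near-identical protease inhibitors, so which of them a read came from is uncertain. *Stfa1* had 565 UMIs in 17 WT and 1306 in 7 KO members, *Stfa3* 170 in 17 and 70 in 11. *Pglyrp1*, a peptidoglycan-binding protein gene, was found in 18 WT and 7 KO members, with 0 UMIs in macrophages of either library. *Csf3r* and *Cxcr2*, receptors of mature neutrophils, had 1 and 3 UMIs in the WT and 3 and 1 in the KO members. *Retnlg*, a resistin-like gene of neutrophils, had 41 UMIs in 4 WT and 0 in KO members.

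The MHC class II genes were the part of the label with the most uneven signal. *H2-Ab1* (chr17:34257689-34269419, plus strand, ENSMUSG00000073421), which encodes a beta chain, stood at 805 CPM in the WT members and 7.80 CPM in the WT macrophages, but at 53.3 and 136 CPM in the KO library. *H2-Aa* (chr17:34282744-34287823, minus strand, ENSMUSG00000036594), which encodes the alpha chain that pairs with it, stood at 496 and 1.56 CPM and at 107 and 233 CPM. *H2-Eb1* (chr17:34305867-34316674, plus strand, ENSMUSG00000060586), a second beta chain gene, stood at 501 and 1.56 CPM and at 107 and 176 CPM. All 3 were thus higher in WT members than in WT macrophages, and lower in KO members than in KO macrophages. Their log2 ratios were 6.69, 8.31 and 8.33 in the WT and -1.35, -1.13 and -0.72 in the KO library, the last with an interval of -1.69 to 0.19. *Ciita*, the transactivator gene on which MHC class II expression depends, had 0 UMIs in members and macrophages of both libraries.

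These ratios rested on single cells. The 7 MHC class II genes had 389 UMIs in the WT members, of which 252 were in 1 cell and 104 in another. Both cells had 1 *Lyz2* UMI and 0 of *Ccr2*. The KO members had 53 UMIs, of which 40 were in 1 cell of group E that also had 338 mesenchymal UMIs. The list had 0 UMIs in 25 WT and 11 KO members. In the KO macrophages 95 of 104 UMIs were in 1 cell, and in the WT macrophages no cell had more than 4 of the 23. For the whole list the log2 ratio of members to macrophages was 5.85 (5.25 to 6.53) in the WT and -0.74 (-1.25 to -0.25) in the KO library. Without the 1 KO macrophage with the most, the KO value was 2.67 (1.64 to 3.88), so this cell decided its direction. Without the 1 member cell with the most in each library, the values were 4.39 and -2.63. *H2-DMa*, a peptide exchange chaperone gene, was spread more evenly, in 16 WT and 7 KO members with 37 and 13 UMIs.

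The class II chain and chaperone genes lie close together on chromosome 17, and such genes commonly share a promoter element, the Y box, an inverted CCAAT motif bound by NF-Y. Because the class II transcripts occurred together in the same few cells, the promoters from RefSeq (GRCm38.p6) were searched for TGATTGG on both strands in the 110 bases before each start. Of the 7 genes, 5 had entries, 6 in all, and 4 entries held the motif, as did 1626 of 32851 promoters of this length (4.95%). The 2 entries of *H2-DMa* did not hold it, and *H2-Ab1* and *Ciita* had no entry. The 4 matching windows are printed 5′ to 3′ on the strand of the gene with the motif in capitals, to show its place: *H2-Aa* at chr17:34287824-34287933 (minus strand), *H2-Eb1* at chr17:34305757-34305866 (plus strand), *H2-DMb1* at chr17:34153081-34153190 (plus strand) and *H2-DMb2* at chr17:34145139-34145248 (plus strand). A match is a description of the sequence only.
H2-Aa: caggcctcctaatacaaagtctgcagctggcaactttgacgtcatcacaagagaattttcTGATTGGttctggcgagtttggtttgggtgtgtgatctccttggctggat
H2-Eb1: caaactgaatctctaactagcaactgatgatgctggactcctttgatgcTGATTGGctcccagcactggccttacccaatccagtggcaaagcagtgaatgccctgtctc
H2-DMb1: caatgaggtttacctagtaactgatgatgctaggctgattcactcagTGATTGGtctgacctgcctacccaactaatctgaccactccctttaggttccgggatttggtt
H2-DMb2: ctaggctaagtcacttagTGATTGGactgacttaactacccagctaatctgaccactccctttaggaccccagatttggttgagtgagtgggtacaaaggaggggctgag

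MHC class I genes were present in most members but somewhat lower than in macrophages. The 6 genes summed to 2197 against 3682 CPM in the WT and 1931 against 2667 CPM in the KO library. Of the genes read, 0 of 4 WT and 0 of 2 KO were past 2 times, beside 22.0% and 18.4% of all genes. So few genes were read that nothing is read from these counts. *B2m*, the light chain gene of class I, stood at 1509 CPM in the WT and 1545 CPM in the KO members. Melanoblasts also had *B2m*, in 93.0% and 89.4% of cells. Cell cycle genes stood at 906 against 966 CPM in the WT library, a log2 ratio of -0.09 (-0.35 to 0.16). In the KO library they stood at 1105 against 806 CPM, a log2 ratio of 0.46 (0.12 to 0.79), with *Top2a*, the topoisomerase gene of dividing cells, past 2 times. Cells with at least 3 UMIs of the 10 genes were 10 of 43 members and 43 of 102 macrophages in the WT library, and 10 of 19 and 11 of 20 in the KO library.

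KO members were then set beside WT members. Of 842 genes with at least 50 UMIs in both together, 56 (6.65%) were at least 2 times higher and 24 (2.85%) at least 2 times lower in the KO members, 80 (9.50%) in all. The median log2 ratio over all genes read was -0.06, and 0.05 when each cell had equal weight. By that scaling the WT median of members to macrophages moved from -0.16 to -0.27. The makeup of the members differed between libraries: groups D and E held 8 of 19 KO and 10 of 43 WT cells, and without both groups 549 genes were read, of which 22 (4.01%) were higher and 14 (2.55%) lower. Ratios of single genes were read again without both groups, and those that rested on few cells changed.

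The genes highest in KO members were *Ptn*, *Hbb-bs*, *Cdkn1c*, *Fcnb* and *Meg3*. *Ptn* (chr6:36714929-36810220, minus strand, ENSMUSG00000029838), which encodes the growth factor pleiotrophin, stood at 566 CPM in the KO and 32.0 CPM in the WT members, a log2 ratio of 4.14 (2.96 to 5.63). *Cdkn1c*, an imprinted cell cycle inhibitor gene, stood at 945 and 80.0 CPM, and *Meg3* at 1145 and 133 CPM. *Ptn*, *Cdkn1c* and *Meg3* all lead group E, and without groups D and E they had only 2, 3 and 3 UMIs in the KO and 2, 1 and 2 in the WT members. The mesenchymal list moved with these genes, at 6644 CPM in the KO and 2549 CPM in the WT members, a log2 ratio of 1.38 with 5 of 5 genes read higher, beside 6.65% of all genes. Its most abundant gene was *Col1a2* in the KO and *Col1a1* in the WT members, with 0 of its 7 genes at 0 in either, and the list stood at 1399 and 663 CPM in melanoblasts. *Fcnb*, a ficolin gene of granulocyte precursors, stood at 679 and 64.0 CPM, and without groups D and E it had 13 KO and 3 WT UMIs, a log2 ratio of 3.12 (1.25 to 5.57). The neutrophil list stood at 74477 and 34307 CPM, a log2 ratio of 1.12, with 3 of 9 genes higher and 1 lower and a median of 0.82. This stands beside 6.65% higher and 2.85% lower of all genes, with a median of -0.06. *S100a8*, *S100a9* and *Camp* were the 3 higher genes, while *Mpo* was lower in the KO members, at 186 against 608 CPM. The WT UMIs of *Mpo* were all in 2 cells of group C, with 83 and 31. The 3 KO cells of group D had 1925, 3215 and 5103 UMIs of the neutrophil list, and 7627, 13590 and 13715 in all. The 7 WT cells of D had only 1489 to 2687 UMIs in all, so the KO level of the list rests on few deep cells. Without groups D and E the list stood at 13344 CPM in the KO and 4723 CPM in the WT members. Of the 934 KO UMIs then left, 612 and 260 were in 2 cells. *Hbb-bs*, an adult beta globin gene, stood at 826 and 64.0 CPM. It had UMIs in 19 of 19 KO members, but also in 97.6% of KO and 20.1% of WT melanoblasts, so free RNA cannot be told apart from the cells' own.

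The genes lowest in KO members were *Xist*, *H2-Ab1*, *2010005H15Rik*, *H2-Eb1* and *H2-Aa*. *Xist* stood at 1519.7 CPM in the WT members with 0 UMIs in the KO members, at least 76.1-fold lower. *H2-Ab1* had a log2 ratio of KO to WT of -3.92 (-5.16 to -2.90), *H2-Eb1* of -2.23 and *H2-Aa* of -2.22, which rest on the 2 WT cells above and on 1 KO cell of group E. Without groups D and E, *H2-Ab1* had 1 KO UMI against 151 WT UMIs, a log2 ratio of -6.24 (-11.55 to -3.74). *H2-Eb1* then had 1 against 94, a log2 ratio of -5.55 (-10.87 to -3.04), and *H2-Aa* 0 against 93. *2010005H15Rik* had a log2 ratio of -2.26, and of 0.00 (-3.46 to 2.80) without groups D and E, where 2 KO and 4 WT UMIs were left. Of the markers given for the cells, *Plac8* had a log2 ratio of -0.92, *Cd52* of -0.86, *Ly6c2* of -0.39 and *Lyz2* of -0.59. *Cd74*, at -1.90, was past 2 times like *H2-Ab1*. Of the 307 WT UMIs of *Cd74*, 168 and 98 were in the same 2 WT cells, so its ratio rests on few cells. The monocyte list had 0 of 6 genes past 2 times, beside 9.50% of all genes, and nothing is read from this count. Its median was -0.56, beside -0.06 over all genes. The direction depended on groups D and E, without which *Lyz2* stood at 10258 CPM in the KO and 9026 CPM in the WT cells and the monocyte list at 12773 and 11323 CPM. *Laptm5*, a lysosomal membrane gene of leukocytes, was the only 1 of 9 pan-leukocyte genes past 2 times, beside 9.50% of all genes. It stood at 146 against 384 CPM, and nothing is read from the count.

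The reporter and *Hira* gave few counts. The tdTomato transcript had 2 UMIs in 2 WT members and 3 in 3 KO members, and it was found in 4.18% and 8.13% of melanoblasts. Members that carried the reporter and cells that passed the sort without it cannot be told apart. *Hira* had 0 UMIs in the 43 WT members and 1 in the KO members, so loss of *Hira* in these cells was not detectable at this depth. The Cre transcript had 0 UMIs in the members of both libraries. *H3f3a* and *H3f3b*, which encode the histone H3.3 that HIRA deposits, stood at 1765 and 2170.2 CPM in the WT and 1678 and 2696 CPM in the KO members.

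Shares of cells with a UMI depend on depth. When cells were brought down to the same depth of 2000 UMIs, with 6 shallower WT members dropped, *Lyz2* was found in 86.5% of WT and 73.7% of KO members, and in 1.85% and 4.07% of melanoblasts. *Ccr2* was found in 37.8% and 31.6% of members, from 48.8% and 63.2% before thinning. *Tyrobp* was found in 97.3% and 89.5%, and *Ptprc*, which encodes CD45, in 40.5% and 15.8%, from 44.2% and 42.1% before thinning. In thinned macrophages *Ptprc* was found in 13.9% of WT and 25.0% of KO cells. The higher share with *Ccr2* in the KO before thinning was thus not seen after it. The thinned intervals overlapped widely, at 22.5 to 55.2 in the WT and 12.6 to 56.6 in the KO.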

How the data were processed

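The values are raw UMI count matrices as deposited by the authors, who per their processing notes made them with Cell Ranger 2.2.0 against mm10. The gene table also lists tdTomato and Cre sequences, and no alignment was repeated. A barcode was dropped if fewer than 100 genes were seen or if mitochondrial genes made up more than 10% of its UMIs (6 WT, 18 KO), leaving 1540 and 828 cells. UMIs were summed per class and library and scaled by class totals. Intervals are exact Poisson (levels), Clopper-Pearson (shares) and conditional binomial (ratios). Genes with at least 50 UMIs in both classes together were read, and 2-fold was the limit, with a class at 0 set at 3 counts. Genes named by rule were the 15 highest and 10 lowest by WT ratio that moved the same way in the KO library, and the 5 highest and 5 lowest of KO against WT members. Gene lists came from general knowledge of the cell types, and promoters from RefSeq. Members and lists were chosen with earlier results of these data known. Clustering used 1000 variable genes, 10 components, 10 neighbours, resolution 1 and seed 0. The code was tested on simulated data. Python 3.11.15, numpy 2.4.6, scipy 1.17.1, pandas 2.3.3, scanpy 1.11.5, anndata 0.12.19, matplotlib 3.10.9, R 4.3.3 and edgeR 4.0.16 were used. Alternatives varied the cell filters, member and macrophage limits, doublet removal with Scrublet, scaling, the UMI minimum, depth and the cells left out.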

Additional observations from a re-analysis of the deposited data

Results flagged for a closer look

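*Cited2* and *H2-Aa* were singled out because the ratio of Plac8/Cd52 cells to macrophages was at least 2-fold in opposite directions in the libraries. *Cited2*, a transcriptional coregulator gene, had a log2 ratio of -1.10 in the WT and 1.20 in the KO library. *H2-Aa* had 8.31 and -1.13. The MHC class II list was added because *H2-Aa* belongs to it and its summed ratio changed sign, a choice made after the values were seen, from 5.85 in the WT to -0.74 in the KO library. The difference between the libraries was not tested for any of them. For MHC class II, 95 of the 104 UMIs of the KO macrophages were in 1 cell. The ratios of *Cited2* were not read again with cells left out, so whether they rest on few cells was not tested.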

How the results depend on the processing

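No paired analysis was possible because each genotype had 1 library. Over 19 settings, 1328 values gave 1197 the same, 127 moved and 4 reversed; 5 settings were chosen after seeing the data. With a sum of at least 10 UMIs, 100% of KO members had *Lyz2* and 100% had *Tyrobp*. With at least 20 UMIs per gene, higher and lower genes were 307 and 799 (WT), 172 and 246 (KO) and 147 and 117 (KO against WT members). With at least 100 UMIs fewer genes were read, and they were 59 and 169, 44 and 39, and 26 and 9. With no filter beyond 1 UMI they were 1747 and 1440, 1239 and 1358, and 1276 and 1090. At 2000 UMIs per cell, 31.6% of KO members had *Ccr2* and 31.6% *S100a8*. For KO against WT members, 14 genes were lower without the *Camp*/*Ngp*-led cells, 36 higher without the *Dcn*/*Col1a2*-led cells, and 22 higher and 14 lower without both, where *2010005H15Rik* went to 0.00 (-3.46 to 2.80) on 2 KO and 4 WT UMIs. Without the KO macrophage with the most MHC class II UMIs, the KO log2 ratio of *H2-Aa* became 4.11 (1.43 to 9.50, 1 macrophage UMI left), of *H2-Ab1* at least 1.53 (0 left) and of *H2-Eb1* 3.11 (1.02 to 6.28, 2 left). The cause of the other changes was not tested.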
